A study of Mus musculus with 8 samples.

Results

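The 112 immunoglobulin light chain genes described here are the rows of a kidney expression table whose Ensembl identifiers map to symbols starting with Igkv, Igkj, Igkc, Iglv, Iglj or Iglc, out of 30153 rows in all. They comprise 102 kappa variable (V) segments, 5 kappa joining (J) segments, the kappa constant gene Igkc, 3 lambda V segments and 1 lambda constant gene, Iglc2. Lambda J segments and Iglc1, Iglc3 and Iglc4 had no row and were not analysed here. RNA was taken from the kidneys of hypertensive C57/BL6 mice that all carried the Hap-II form of the human angiotensin receptor type 1 gene. Every mouse, adult or aged, was fed western diet, and each group had 4 mice with 1 library per mouse. Ages in months, the promoter driving the transgene and the number of founder lines were not stated in the labels. Animals without the transgene, or on another diet, are not part of the comparison. Values are TPM, a relative transcript abundance scaled by transcript length, so levels of different genes can be set side by side. Sequencing depth cannot be read from TPM and is unknown, so counting intervals are left out. Kidney markers summed to between 11877 and 72172 TPM per library, and Kap alone, with 8775 to 71490 TPM, supplied most of it. The other kidney markers had means from 7.35 TPM for Nphs1 to 653 TPM for Slc34a1.

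An antibody pairs heavy chains with light chains of the kappa or the lambda type. Each B cell joins a single V segment to a J segment at one light chain locus, and the joined exon is spliced to a constant gene, so a light chain messenger RNA carries V, J and constant sequence in the same molecule. Kappa is tried first and is by far the commoner type in mice, and plasma cells, which secrete antibody, hold very large amounts of light chain RNA. In the kidney, proximal tubules take up filtered light chain protein through megalin and cubilin.

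The kappa genes lie on chromosome 6 of GRCm38, where the annotated V segments span 67555497 to 70704177, the J segments 70722562 to 70723927 and Igkc 70726435 to 70726966 on the plus strand. The lambda genes lie on chromosome 16, with V segments between 19085017 and 19260859. Of the genes of these symbols annotated in GENCODE release M21, 100 of 103 V genes and 5 of 60 V pseudogenes had a row. The sequences below come from the transcripts of that release. The first set gives the last 60 annotated coding bases of V segments that the results turn on, with capitals from the last in-frame cysteine codon to the end. Except in Iglv3, the capitals mark that codon and, after it, the germline part of the third complementarity-determining region, a stretch that touches antigen. In Iglv3 they run on to an in-frame TAA stop codon and a trailing C, so they hold more than that codon and region.
Igkv10-96: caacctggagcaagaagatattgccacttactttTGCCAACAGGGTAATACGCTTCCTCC
Igkv10-94: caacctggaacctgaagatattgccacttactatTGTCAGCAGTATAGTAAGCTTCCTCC
Igkv5-43: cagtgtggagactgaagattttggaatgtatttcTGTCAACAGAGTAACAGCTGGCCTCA
Igkv12-46: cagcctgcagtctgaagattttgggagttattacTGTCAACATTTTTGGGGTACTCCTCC
Iglv1: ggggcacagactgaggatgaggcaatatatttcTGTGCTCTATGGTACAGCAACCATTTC
Iglv2: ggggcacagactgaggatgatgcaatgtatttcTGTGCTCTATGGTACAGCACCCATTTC
Iglv3: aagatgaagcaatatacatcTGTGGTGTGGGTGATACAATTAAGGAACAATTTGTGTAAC
Iglv1 and Iglv2 differed at 3 of these 60 bases, and Igkv10-96 and Igkv10-94 at 10. Over their aligned transcripts Iglv1 and Iglv2 were 96.7% identical and shared 133 of the 361 words of 31 bases in Iglv1, while Iglv1 and Iglv3 shared 0. Among the 102 kappa V segments the median share of such words found in another annotated V segment was 42.7%, so near-identical segments can trade reads and the value of any single segment is uncertain.

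The second set gives the 5 kappa J segments whole, with capitals for a run that encodes phenylalanine, glycine, any residue and glycine. This is the structural motif that follows the third complementarity-determining region.
Igkj1: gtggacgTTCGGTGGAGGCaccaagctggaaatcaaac
Igkj2: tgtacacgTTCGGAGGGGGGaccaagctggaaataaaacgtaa
Igkj3: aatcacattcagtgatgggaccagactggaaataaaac
Igkj4: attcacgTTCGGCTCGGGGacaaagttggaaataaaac
Igkj5: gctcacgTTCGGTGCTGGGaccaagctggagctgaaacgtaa
Igkj3, known as a segment that mouse B cells do not use, is the only one without that run. It was also the only J segment listed at 0 in all 8 libraries.

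Igkc, the constant part of every kappa chain, was the most abundant member, and its level varied widely between animals of the same group. It had 201, 37.4, 131 and 109 TPM in adult replicates 1 to 4 and 141, 186, 299.7 and 515 TPM in aged replicates 1 to 4. Adult replicate 2 was the lowest and aged replicate 4 the highest, and the groups overlapped because adult replicate 1 lay above aged replicates 1 and 2. The means were 120 ± 67.4 and 285 ± 167 TPM (SD, n = 4 each). The difference on the log2(TPM + 1) scale was 1.30 (SE 0.51, limma adjusted p = 1.00 over all 11796 genes tested), so Igkc did not pass the test. Leaving out adult replicate 2 gave 0.82, leaving out aged replicate 4 gave 0.96, and leaving out both gave 0.48. In whole kidney, the number of cells that hold Igkc RNA and the amount per such cell cannot be told apart.

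**Figure D1:**
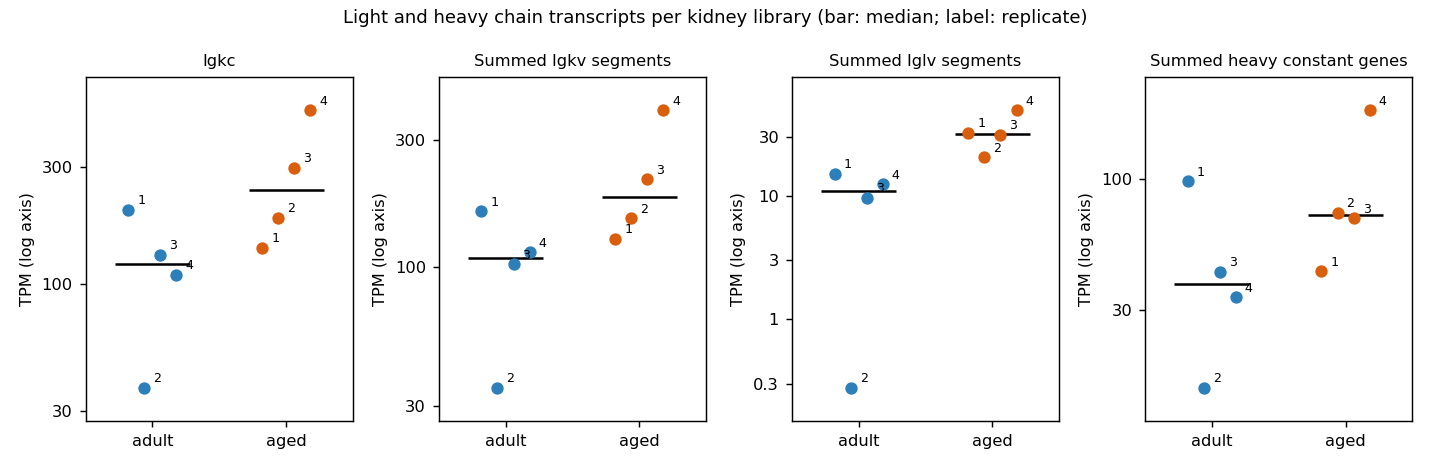
TPM (log axis) of Igkc, the summed Igkv segments, the summed Iglv segments and the summed heavy chain constant genes in each library, with adult and aged groups side by side, replicate numbers at the points and bars at the group medians. The summed Iglv segments lie at or under 15.0 TPM in all adult libraries and at or above 20.5 TPM in all aged ones, while the other panels overlap.

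The summed kappa V segments were close to Igkc in level in each library, and the 2 are measured from different parts of the message. They had 162, 35.3, 103 and 114 TPM in adult replicates 1 to 4 and 128, 152, 214 and 387 TPM in aged replicates 1 to 4. The order of the lowest and the highest library was that of Igkc, and the groups again overlapped. Their ratio to Igkc lay between 0.713 and 1.04, with means of 0.893 ± 0.123 for adult mice and 0.797 ± 0.0858 for aged mice (SD, 4 libraries in each group). The median kappa V sum was 108 TPM for adult mice and 183 TPM for aged mice, a log2 ratio of 0.76. That ratio was not tested, because it sums genes chosen with results of these data known.

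**Figure D2:**
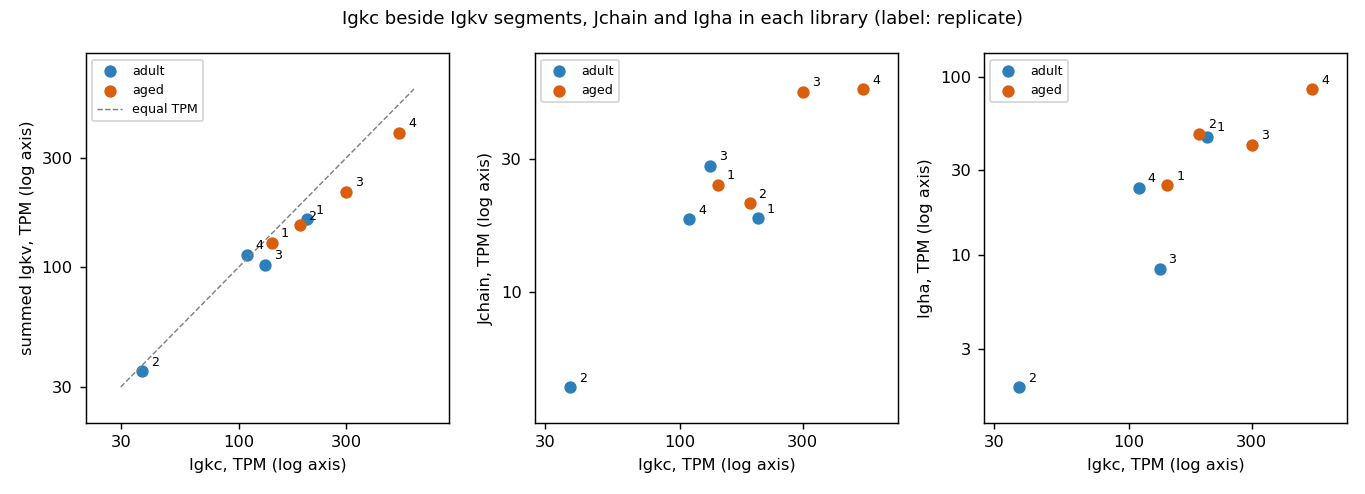
Igkc in TPM on the horizontal log axis against the summed Igkv segments, Jchain and Igha in TPM on vertical log axes, 1 point per library, coloured by group and labelled by replicate, with a dashed line of equal TPM in the first panel. Adult replicate 2 is lowest and aged replicate 4 highest in all 3 panels, and the Igkv sum runs close to the line of equal TPM.

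The sum of the lambda V segments was higher in every aged library than in any adult one, which was not the case for the kappa sum. The 3 lambda segments together had 15.0, 0.280, 9.62 and 12.3 TPM in adult replicates 1 to 4 and 32.3, 20.5, 31.2 and 48.9 TPM in aged replicates 1 to 4. Iglv1, on chromosome 16 at 19085017 to 19085500 on the minus strand, supplied most of it. It had 14.9, 0.280, 8.28 and 11.1 TPM in adult replicates 1 to 4 and 30.7, 18.8, 27.9 and 43.9 TPM in the aged ones, so its groups did not overlap. Its log2 fold change was 2.12 (SE 0.66, limma adjusted p = 1.00 over all genes), 1.31 without adult replicate 2 and 1.11 without both adult replicate 2 and aged replicate 4. Iglv1 is thus not called over all genes.

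Iglv3, a distant lambda segment, had 0.124, 0, 1.34 and 1.18 TPM in adult replicates 1 to 4 and 0.979, 1.68, 3.26 and 3.31 TPM in aged replicates 1 to 4. The groups overlapped, with a log2 fold change of 1.02 (SE 0.38, limma adjusted p = 1.00). Iglv2 was listed at 0 in all libraries except aged replicates 1 and 4, which had 0.587 and 1.68 TPM, and its mean was too low for the test.

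As a percentage of all V segment TPM, kappa and lambda together, lambda had 8.49%, 0.789%, 8.58% and 9.79% in adult replicates 1 to 4. In aged replicates 1 to 4 it had 20.2%, 11.9%, 12.7% and 11.2%. The groups did not overlap, but aged replicate 4 lay close above adult replicate 4. The means were 6.91% ± 4.13 and 14.0% ± 4.16 (SD, n = 4 each), which differ by 7.08 points with SE 2.93 (two-sided exact permutation p = 0.0286, and 4 against 4 cannot give a smaller one). Adjusted over 3 composition measures it had p = 0.0857 (exact permutation), so it did not pass. In that adjustment it stood in for the planned kappa percentage of constant genes. Both were examined, so the adjustment covers fewer measures than were looked at. Without adult replicate 2 the difference was 5.04 points and without aged replicate 1 it was 5.03 points (exact permutation p = 0.0571 in both). Summed Y-linked RNA was low in replicates 1 and 2 of both groups (0.485 to 2.30 TPM) and high in replicates 3 and 4 (34.7 to 50.6 TPM), and within the low and the high class the difference was 11.4 and 2.79 points.

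The constant genes gave the opposite direction, with a single lambda gene. Igkc held 99.6%, 97.9%, 97.3% and 98.8% of the summed Igkc and Iglc2 TPM in adult replicates 1 to 4 and 98.8%, 100%, 98.1% and 99.3% in aged replicates 1 to 4. The groups overlapped, and the aged mean was 0.64 points higher with SE 0.651 (two-sided exact permutation p = 0.400, adjusted p = 0.486 over 3 measures). Iglc2 itself had 0.813, 0.783, 3.71 and 1.34 TPM in adult replicates 1 to 4 and 1.76, 0, 5.87 and 3.68 TPM in the aged ones (log2 fold change 0.33, SE 0.55, limma adjusted p = 1.00). Iglv1 is known to join mainly to the Iglc1 and Iglc3 clusters in mice, and neither constant gene had a row. Iglc2 shared 106 words of 31 bases with Iglc3 and 0 with Iglc1, so no constant row of the table shares such words with Iglc1. The lambda V sum was 18.5 times Iglc2 in adult replicate 1 and 0.358 times in adult replicate 2. Lambda levels from V and from constant rows are therefore given side by side.

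**Figure D3:**
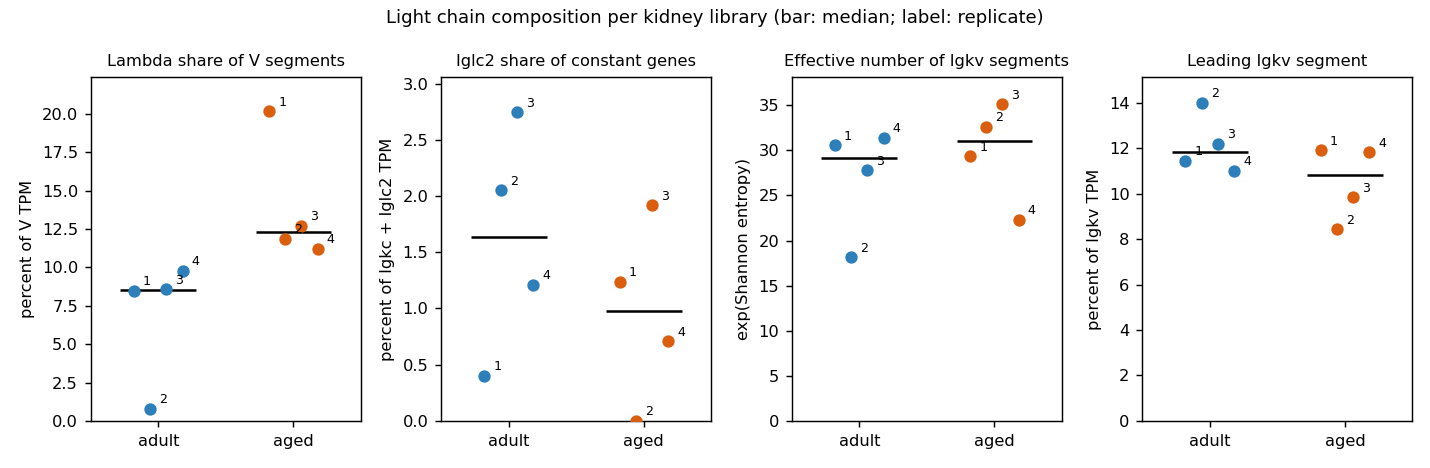
Lambda percentage of V segment TPM, Iglc2 percentage of Igkc plus Iglc2 TPM, effective number of Igkv segments and percentage of Igkv TPM in the leading segment, each per library with replicate numbers, bars at group medians and axes from 0. Only in the first panel do the adult libraries (at most 9.79%) and the aged libraries (at least 11.2%) not overlap.

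Kappa V usage was broad in both groups. Of the 102 kappa V rows 24 were listed at 0 in all libraries, 5 of them annotated pseudogenes, and 78 were above 0 in at least 1 library. A mean of at least 1 TPM was reached by 38, and 16 were above 0 in all 8 libraries. Those 16 held between 47.3% and 62.5% of the kappa V TPM. The number above 0 per library was 52, 25, 40 and 51 in adult and 41, 49, 58 and 40 in aged replicates 1 to 4, lowest in adult replicate 2, where the kappa sum was also lowest.

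The effective number of kappa V segments, the number of equally used segments that would give the same Shannon entropy, was 30.5, 18.1, 27.8 and 31.4 in adult replicates 1 to 4. In aged replicates 1 to 4 it was 29.4, 32.6, 35.1 and 22.3. The lowest values belonged to the library with the least and the library with the most kappa RNA, adult replicate 2 and aged replicate 4. The means were 27.0 ± 6.08 and 29.9 ± 5.55 (SD, n = 4 each), a difference of 2.89 with SE 4.12 (two-sided exact permutation p = 0.486, adjusted p = 0.486 over 3 measures), and of −0.06 without adult replicate 2. Within the classes of low and high Y-linked RNA it was 6.66 and −0.88.

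The leading segment held 11.5%, 14.0%, 12.2% and 11.02% of the kappa V TPM in adult and 11.9%, 8.44%, 9.85% and 11.8% in aged replicates 1 to 4. The difference of the means was −1.66 points with SE 1.07 (two-sided exact permutation p = 0.229, adjusted p = 0.486). Within those classes it was −2.55 and −0.77 points. The leading segment was Igkv10-96 in adult replicates 2 and 3 and aged replicate 1, and Igkv1-117 in adult replicate 4 and aged replicate 3. It was Igkv1-110 in adult replicate 1, Igkv6-15 in aged replicate 2 and Igkv5-43 in aged replicate 4. In no library did the leading segment exceed 14.0% of the kappa V TPM.

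Igkv10-96, on chromosome 6 at 68631963 to 68632442 on the minus strand, had the highest mean of the kappa V segments. It had 7.91, 4.94, 12.5 and 6.65 TPM in adult replicates 1 to 4 and 15.2, 5.04, 20.1 and 43.0 TPM in the aged ones. Its log2 fold change was 1.02 (SE 0.51, limma adjusted p = 1.00) and the groups overlapped. Its share of the kappa V TPM went from 3.31% in aged replicate 2 to 14.0% in adult replicate 2, and both extremes lay in replicate 2 of their group.

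Igkv1-117, at 68121046 to 68121827 on the plus strand, had 10.4, 0.879, 7.53 and 12.5 TPM in adult replicates 1 to 4 and 4.96, 11.4, 21.1 and 23.1 TPM in the aged ones. Igkv1-110 had 18.6, 0.449, 1.75 and 6.93 TPM in adult replicates 1 to 4 and 6.05, 9.10, 8.25 and 16.3 TPM in the aged ones. Both segments overlapped between the groups. They are 97.5% identical over their aligned transcripts, so their split is uncertain.

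Igkv6-15 had 8.17, 1.05, 4.52 and 8.48 TPM in adult replicates 1 to 4 and 3.54, 12.9, 14.0 and 38.8 TPM in the aged ones. The other member of its family among the 10 highest, Igkv6-23, had between 1.87 and 7.03 TPM in adult and between 2.97 and 10.3 TPM in aged libraries. Igkv5-48, which shares no 31-base word with another annotated V segment, had 2.76, 1.64, 5.998 and 2.43 TPM in adult replicates 1 to 4 and 8.21, 7.83, 5.01 and 7.82 TPM in the aged ones. Adult replicate 3 lay above aged replicate 3, so the groups of Igkv5-48 overlapped (log2 fold change 1.04, SE 0.33, limma adjusted p = 1.00).

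Igkv5-43 and Igkv12-46 stood out in a single animal, aged replicate 4. Their values there also entered the rules by which they were named, so this is a description only. Igkv12-46 had a mean of 7.17 TPM over the 8 libraries but medians of 1.97 TPM in adult and 3.28 TPM in aged mice. Igkv5-43, at 69823355 to 69823943 on the minus strand, had 8.67, 1.48, 4.07 and 5.10 TPM in adult replicates 1 to 4 and 8.54, 3.84, 9.85 and 45.7 TPM in the aged ones. Igkv12-46, at 69764523 to 69765022 on the minus strand, had 1.92, 0.300, 2.06 and 2.01 TPM in adult replicates 1 to 4 and 0, 2.85, 3.70 and 44.5 TPM in the aged ones. Aged replicate 4 had more than 4 times the next highest value for either segment, and Igkv12-46 held 11.5% of its kappa V TPM against at most 2.00% elsewhere. The log2 fold change of Igkv12-46 was 1.14 (SE 0.89, limma adjusted p = 1.00), and 0.11 without aged replicate 4. Over aligned transcripts Igkv5-43 is 98.4% identical to Igkv5-45, and Igkv12-46 is 94.4% identical to Igkv12-44. In aged replicate 4 Igkv5-45 was listed at 0 and Igkv12-44 had 2.05 TPM, and the split within each pair is uncertain.

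**Figure D4:**
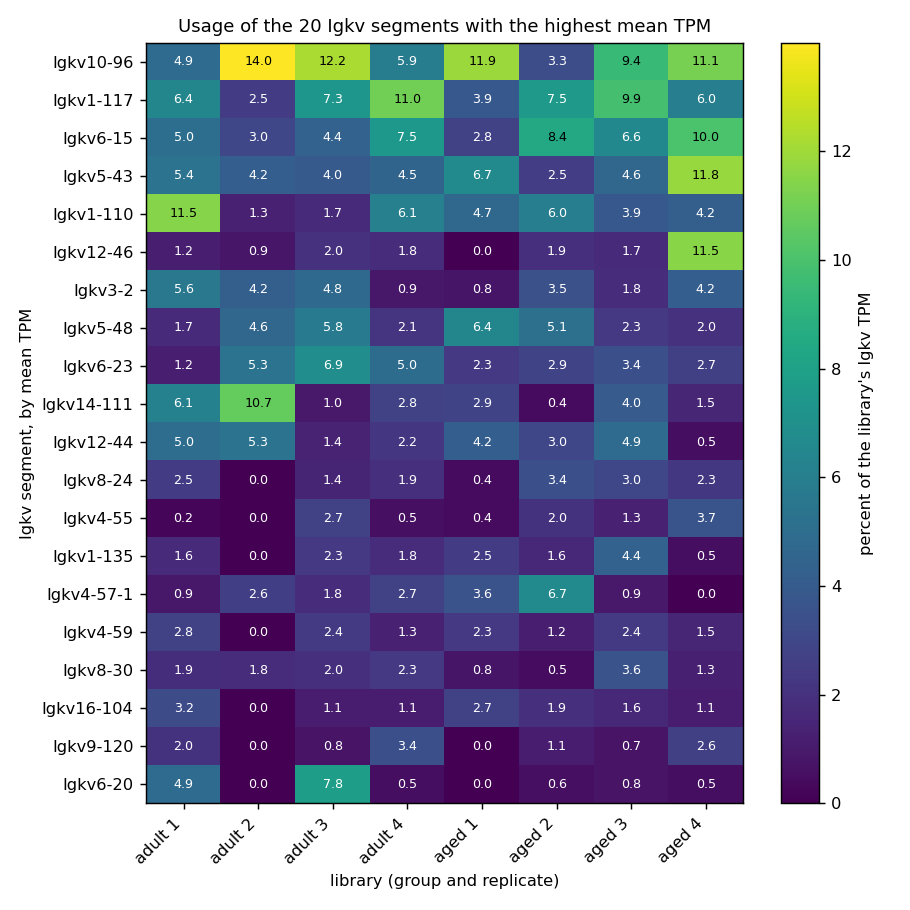
Percentage of each library's kappa V TPM held by the 20 Igkv segments with the highest mean TPM (rows, from highest to lowest mean) in the 8 libraries (columns), with the value written in each cell and a colour scale from 0. Igkv10-96 reaches 14.0% in adult replicate 2, and Igkv12-46 is at 11.5% in aged replicate 4 and at or under 2.00% in the other libraries.

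Igkv3-2 and Igkv14-111 had their fold changes nearest to 0 among the 10 highest segments. Igkv3-2 ranged from 1.00 to 9.06 TPM in adult and from 0.994 to 16.1 TPM in aged libraries (log2 fold change 0.45, SE 0.65, limma adjusted p = 1.00). Igkv14-111 ranged from 1.01 to 9.93 TPM in adult and from 0.599 to 8.54 TPM in aged libraries (log2 fold change 0.04, SE 0.59, limma adjusted p = 1.00). Grouped by family, Igkv6 held on average 16.6% of the kappa V TPM, Igkv1 14.7%, Igkv4 12.5%, Igkv5 11.4% and Igkv10 10.2%. Igkv4 has the most rows, 26, of which 23 were above 0 in some library, and its share was among the steadiest of these 5, between 7.92% and 14.7%. The families Igkv7, Igkv11 and Igkv18 were listed at 0 in every library.

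Used segments came from both strands and from both ends of the locus. Segments on the minus strand, which lie opposite to the J segments and rearrange by inversion, numbered 63 and held a median of 63.8% of the kappa V TPM (range 53.1% to 72.1%). The 39 on the plus strand, which rearrange by deletion, held a median of 36.2%. Split at the median start, the 51 segments nearest the J segments held a median of 54.9% and the other 51 a median of 45.1%. The 78 segments above 0 had a median of 50.7% of their 31-base words in another V segment, and the 24 listed at 0 a median of 25.4%. These are descriptions of these 8 libraries and were not tested.

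The J segments were measured thinly. They are 38 to 43 bases long and hold between 8 and 13 words of 31 bases each, so their TPM rest on very short targets. Igkj1 was listed at 0 in adult replicates 1 to 3 and had 7.17 TPM in adult replicate 4, and it had 0, 2.89, 6.91 and 4.97 TPM in aged replicates 1 to 4 (log2 fold change 1.12, SE 0.76, limma adjusted p = 1.00). Igkj2 was listed at 0 in the same 3 adult libraries, had 4.89 TPM in adult replicate 4, and was above 0 in all aged ones, with 8.00, 2.24, 2.46 and 5.42 TPM (log2 fold change 1.69, SE 0.58, limma adjusted p = 1.00). Igkj4 was above 0 only in adult replicate 1 (2.98 TPM) and aged replicates 3 and 4 (5.18 and 4.97 TPM), with a log2 fold change of 0.80 (SE 0.69, limma adjusted p = 1.00). Igkj5 was above 0 in adult replicate 1 (1.99 TPM) and aged replicate 3 (2.61 TPM) and was not tested. Their sum was at most 17.2 TPM, far under Igkc in every library.

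No light chain gene passed the comparison of aged with adult kidneys over all genes. Of the 112 members 45 had a mean of at least 1 TPM over the 8 libraries and were tested, another 42 were above 0 in some library but too low, 25 were listed at 0 throughout, and 0 of the 45 had a limma adjusted p under 0.05. Of all 11796 genes tested 0% (0 genes) passed, and 400 had an unadjusted p under 0.05. Among the members 8 had an unadjusted p under 0.05, all higher in aged kidneys, where 0.636% of all genes tested were higher and 2.76% lower at that level. Of these 8, Igkv10-94, Igkv3-1, Igkv12-89 and Iglv3 had adult means of 0.325, 0.250, 0.782 and 0.662 TPM. They reached the filter only through their aged values, so the count is no independent support. The 5 members with the smallest p were Igkv10-94, Iglv1, Igkv5-48, Igkv3-1 and Igkj2, none of which passed.

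Igkv10-94, a close relative of Igkv10-96, had 0.157, 0, 1.14 and 0 TPM in adult replicates 1 to 4 and 1.97, 6.76, 3.07 and 1.90 TPM in the aged ones. Its log2 fold change was 1.69 (SE 0.38, limma adjusted p = 1.00), and its groups did not overlap. It shares 148 of its 317 words of 31 bases with Igkv10-96. Igkv3-1 had 0.556, 0, 0 and 0.443 TPM in adult replicates 1 to 4 and 1.65, 3.27, 0.408 and 2.16 TPM in the aged ones (log2 fold change 1.12, SE 0.36, limma adjusted p = 1.00), with aged replicate 3 under 2 adult libraries. Complete separation with aged kidneys higher was seen for 2 of the 45 members, Igkv10-94 and Iglv1, and for 0.348% of all genes tested. Igkv10-94 was among the 45 only through its aged values, as its adult mean was 0.325 TPM. Separation with aged kidneys lower was seen for 0 members and 2.11% of all genes.

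Positive log2 fold changes were found for 42 of the 45 tested members, with a median of 0.80, against 35.0% of all genes tested, whose median was −0.11. With no filter 70 of the 87 members above 0 were positive with a median of 0.46, and with a pseudocount of 5 the median of the 45 was 0.34 with 41 positive. Of all genes fitted in these settings 59.3% and 65.2% were negative, with medians of −0.03 and −0.07. The 45 are those that passed a filter on the mean, some of them through the aged group alone, such as Igkv10-94 and Igkv3-1 with adult means of 0.325 and 0.250 TPM. V and constant rows report the same molecules, so the count does not stand for 45 separate observations. Without adult replicate 2 and aged replicate 4, the libraries with the least and the most light chain RNA, 31 of 45 were positive and the median was 0.25. Of all genes 61.0% were then negative, with a median of −0.08. With mitochondrial genes removed 43 were positive and the median was 1.15. The background moved up as well, as only 31.5% of all genes were then negative and their median was 0.14. The mitochondrial share of the column total was between 21.2% and 27.8% in adult and between 28.7% and 49.3% in aged libraries, without overlap, and its part in these values was not tested beyond that removal. On the log2(TPM + 1) scale Igkc differed by 0.89 among replicates 1 and 2 and by 1.71 among replicates 3 and 4, the class of high Y-linked RNA.

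**Figure D5:**
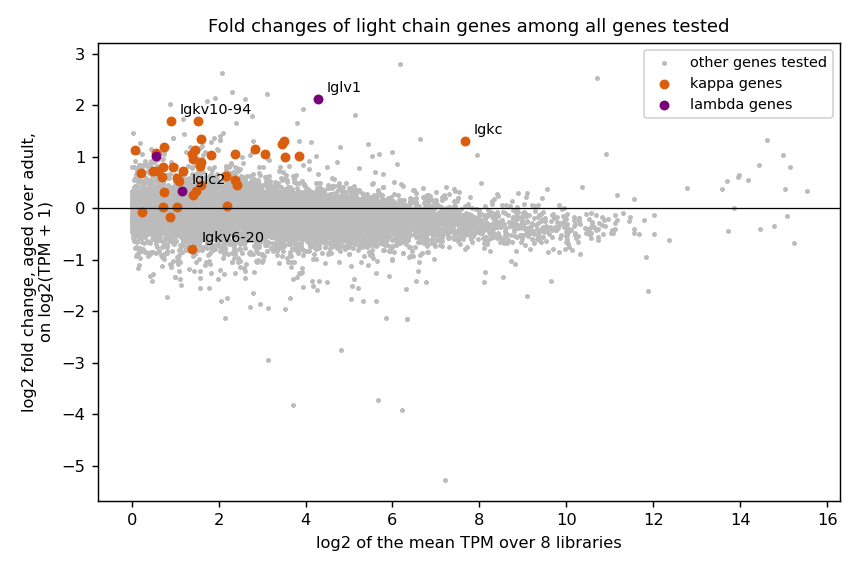
Log2 fold change of aged over adult kidneys on log2(TPM + 1) against the log2 of the mean TPM, for all 11796 genes tested (grey), kappa genes (orange) and lambda genes (purple), 1 point per gene. Light chain points lie mostly above 0, with Iglv1 highest at 2.12 and Igkv6-20 lowest at −0.79, and none passed the limma test.

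B cell marker transcripts were low beside the light chains. Of 12 B cell markers 3 had a mean of at least 1 TPM, and their sum lay between 6.35 and 8.79 TPM in adult and between 3.32 and 10.04 TPM in aged libraries, overlapping. The highest mean of the list was 2.09 TPM for Cd79b. The lowest was 0.0385 TPM for Pax5, the B cell identity factor, against 203 TPM for Igkc. None was listed at 0 in all libraries. Of the 3 tested, 1 had a positive log2 fold change, the median was −0.10 and 0 passed.

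Among 12 plasma cell genes 6 were tested, 3 with positive fold changes, with a median of 0.09, and 0 passed. The 3 positive log2 fold changes were those of Jchain (1.18), Slamf7 (0.55) and Mzb1 (0.23). The 3 negative ones were those of Xbp1 (−0.15), Sdc1 (−0.11) and Eaf2 (−0.06). The list's summed level lay between 75.0 and 118 TPM in adult and between 91.2 and 126 TPM in aged libraries. Xbp1, a secretory regulator that kidney cells also express, had the highest mean of the list at 56.1 TPM, but Jchain lay above it in aged replicate 3, at 52.4 against 33.7 TPM. Jchain, which links IgA and IgM units, had 18.4, 4.56, 28.4 and 18.3 TPM in adult replicates 1 to 4 and 24.3, 20.9, 52.4 and 53.6 TPM in the aged ones (log2 fold change 1.18, SE 0.50, limma adjusted p = 1.00). Adult replicate 2 was lowest for Jchain as for Igkc, and the groups overlapped.

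The heavy chain constant genes, which encode the partner chain, summed to 98.2, 14.7, 42.8 and 33.8 TPM in adult replicates 1 to 4 and 42.9, 73.3, 69.99 and 188 TPM in the aged ones. All 5 tested had positive fold changes (median 0.80) and 0 passed. Igha, the constant gene of mucosal IgA, was the most abundant of them with 46.2, 1.83, 8.42 and 23.9 TPM in adult replicates 1 to 4 and 24.6, 48.1, 41.6 and 85.4 TPM in the aged ones (log2 fold change 1.80, SE 0.72, limma adjusted p = 1.00). The extremes were again adult replicate 2 and aged replicate 4.

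Genes of the surrogate light chain and of V(D)J joining in developing B cells summed to between 2.21 and 7.95 TPM in adult libraries. In aged libraries the sum lay between 1.10 and 4.13 TPM. Rag1, which cuts DNA for V(D)J joining, and Vpreb2, part of the surrogate light chain, were listed at 0 in every library. Rag2 was above 0 in every library, with 0.082 to 0.658 TPM. Only Vpreb1 of 7 such genes was tested (log2 fold change −0.31), and it had 0.869 to 6.35 TPM with a mean of 2.34 TPM. Of 10 transcription factors known to act on light chain genes 5 were tested, 1 with a positive fold change (median −0.21), and 0 passed. The rest, Irf4 and Pou2af1 among them, had means under 1 TPM and were not tested. Of 10 T cell markers 5 were tested (2 positive, median −0.13), and of 8 macrophage markers 7 (2 positive, median −0.14), with 0 calls in both. Of the 10 kidney markers all were tested, with 3 positive, a median of −0.18 and 0 calls. For all of these lists the background is the 35.0% of all genes tested with positive fold changes, with a median of −0.11.

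The genes outside the light chain family whose log2(TPM + 1) followed Igkc most closely over the 8 libraries included 2 of the antibody secretory group. Pearson's r was 0.954 for Far1, an enzyme of ether lipid synthesis, 0.946 for Gpt, an alanine aminotransferase, 0.922 for Jchain, 0.913 for Igha and 0.903 for Thpo, the thrombopoietin gene. They were picked as the highest of all genes tested and share libraries and scaling with Igkc, so r is given as a description. Far1 had 36.1, 24.8, 33.0 and 30.2 TPM in adult replicates 1 to 4 and 31.8, 37.6, 38.0 and 54.4 TPM in the aged ones, with its lowest and highest value in the same libraries as Igkc.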

How the data were processed

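Poly(A)-selected stranded RNA libraries were made from 8 mouse kidneys, per the labels' protocols. The authors deposited 1 table of TPM for 30153 genes, and per the submitters' processing notes kallisto, DESeq2 and GRCm38 were used; their roles and versions and the annotation were not stated there. TPM keep no depth, so precision rests on 4 animals per group. Columns were matched to samples by title. Symbols were found for 29732 identifiers (98.6%), and 7 identifiers were summed with another of the same symbol. Members and lists were chosen with earlier results of these data known.

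All genes with a mean of at least 1 TPM were fitted on log2(TPM + 1) with limma 3.58.1 in R 4.3.3 (intensity trend, Benjamini-Hochberg, threshold 0.05), since TPM are not counts. The planned kappa percentage used Igkc and Iglc2, the constant genes with a row. This and both usage measures had a two-sided exact permutation test over 70 assignments. Sums were not tested. Scripts were tested on simulated data. Named were constant, J and lambda V genes, the 10 kappa V segments with the highest mean, each library's leading segment, the 5 smallest p and the 5 genes closest to Igkc. Igkv6-20 and the pair values of similar segments were added after their values were seen. Libraries were also split at a summed 10 TPM of 4 Y-linked genes, which separates replicates 1 and 2 from 3 and 4 in both groups. Alternatives were other pseudocounts, filters and scalings, robust estimation, the replicate block, the Y-linked class, other composition measures and each library left out. Analysis of the lambda percentage with libraries left out, and omission of adult replicate 2 with aged replicate 4, were added after the data were seen.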

Additional observations from a re-analysis of the deposited data

Results flagged for a closer look

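In groups of 4, a value was singled out where its gap to the nearest other value passed Dixon's limit for a single outlying value. Of 60 groups examined 12 held such a value. The limit is set to pass about 1 in 20, or 3 here, if values are normally distributed and groups independent. That does not hold here, so 12 beside 3 does not show an excess. Several of the 12 rest on libraries at 0, and V rows of 1 library share their messages. Some segments were also named for a high mean or for leading a library.

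Aged replicate 4 had 45.7 TPM of Igkv5-43, where the other aged libraries had 3.84 to 9.85 TPM. It also had 44.5 TPM of Igkv12-46, where the others had 0 to 3.70 TPM. Adult replicate 2 had 0.300 TPM of Igkv12-46, under 1.92 to 2.06 TPM in the other adult libraries. Aged replicate 3 had 5.01 TPM of Igkv5-48, under 7.82 to 8.21 TPM in the other aged libraries. Adult replicate 3 had 1.14 TPM of Igkv10-94, above 0 to 0.157 TPM in the other adult libraries.

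The lambda percentage of V segment TPM was 0.789% in adult replicate 2, under 8.49% to 9.79% in the other adult libraries. It was 20.2% in aged replicate 1, above 11.2% to 12.7% in the other aged libraries.

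For the J segments a single library was above 0 in its group. This was adult replicate 4 for Igkj1 (7.17 TPM) and Igkj2 (4.89 TPM), and adult replicate 1 for Igkj4 (2.98 TPM). For Igkj5 it was adult replicate 1 (1.99 TPM) and aged replicate 3 (2.61 TPM).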

How the results depend on the processing

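Depth is unknown, and 4 animals per group limit precision. The count of genes past the limma threshold was 0, between 0 and 2 with each library left out (1 without adult replicate 3 and 2 without aged replicate 1), and 0 under the other settings run. No light chain gene passed under any of these settings. The percentage of kappa changed direction with V segments in place of constant genes (−7.08 points, exact permutation p = 0.0286). It was between 0.26 and 1.04 points with each library left out, and using all Iglc rows changed nothing because Iglc2 is the only one. The effective number of kappa V segments differed by between −0.0565 (without adult replicate 2) and 5.40 with each library left out. The leading share differed by between −2.13 and −0.97 points, the lambda percentage by between 5.03 and 8.04 points, and the log2 ratio of the kappa V sum by between 0.50 and 0.98. Of the named genes with direction changes, Iglc2 had −0.0175 with a pseudocount of 0.1 and −0.0245 without adult replicate 2 and aged replicate 4 together, and between −0.0572 and 0.87 with each library left out. Igkv14-111 had −0.0151 with a pseudocount of 0.1, −0.12 without both libraries, and between −0.36 and 0.56 with each left out. Igkv3-2 had −0.33 without both and between −0.08 and 0.95 with each left out, and Igkv12-46 had −0.19 without both and between 0.11 and 1.95 with each left out. The cause was not tested. Same-numbered libraries deviated together with r of 0.04, 0.18, 0.49 and 0.42 for numbers 1 to 4, and not every adult library correlated best with its own number, so the numbers were not taken as pairs. With the replicate block 0 genes passed limma, with 916 at an unadjusted p under 0.05 against 400 without the block. Within replicate numbers, exact permutation p was 0.500 for the kappa percentage, 0.750 for the effective number, 0.500 for the leading share and 0.125 for the lambda percentage, the last being the smallest the block allows. Within the Y-linked classes the lambda percentage had exact permutation p = 0.0556, the smallest possible there.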
